A study of Mus musculus with 6 samples.

Results

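The replication-dependent histone genes make the H1, H2A, H2B, H3 and H4 proteins that package newly copied DNA. They lie in clusters, mostly without introns, and their transcripts rise when cells enter S phase and are degraded when DNA synthesis stops. Such a transcript usually ends just after a short stem-loop, which is bound by the protein SLBP, and carries no poly(A) tail. Some of these genes also give longer, polyadenylated transcripts, which have been described in resting and differentiating cells. The members were the protein-coding rows of the count table whose symbols begin with Hist1h, Hist2h, Hist3h or Hist4h, which gave 68 of 50686 genes. They comprised 6 H1, 19 H2A, 18 H2B, 12 H3 and 13 H4 genes, with 55 in cluster Hist1 on chromosome 13, 10 in Hist2 on chromosome 3, 2 in Hist3 on chromosome 11 and 1 in Hist4 on chromosome 6 (GRCm38).

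Bulk RNA sequencing was done on natural killer (NK) cells sorted from mouse spleen, with 3 Eumyc libraries and 3 WT libraries. Eumyc libraries came from C57BL/6J mice given Eumyc lymphoma intravenously, with spleens taken at day 14, and WT libraries from healthy C57BL/6J mice whose genotype is labelled wild type. Eumyc lymphoma is a B cell tumour driven by a Myc transgene under an immunoglobulin heavy chain enhancer, and the NK cells belong to the host. In both groups B cells were depleted with antibody 1D3, CD49b beads were used for enrichment, and cells were sorted as NK1.1+TCRb-. In Eumyc samples the sort also took the cells that the CD49b beads had not retained, so this step and the lymphoma cannot be told apart. The labels give no age or sex of the mice and do not say whether each library is a separate mouse, so p-values measure the spread between these libraries.

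Library totals were 44456157 to 66615602 counts in Eumyc and 16407611 to 36534191 in WT, with no overlap in depth. The histone genes together held 2961 to 5480 counts in Eumyc libraries and 1026 to 2924 in WT libraries, at most 0.00823% of a library. Summed levels (CPM, counts scaled to library size) of 10 NK cell markers were 13660 to 15070 in Eumyc and 14770 to 15030 in WT, with 5 of the 10 lower in Eumyc, among them Klre1 (-0.82 on the log2 scale), Klrd1 (-0.70) and Klrb1c (-0.48), 1 higher and 4 not passing. Cell cycle genes differed strongly between the groups, with 28 of 30 genes of an S phase and DNA replication list and 25 of 25 of a G2/M and mitosis list higher in Eumyc. Beside these list counts, 25.7% of all tested genes were higher and 23.1% lower. In bulk RNA, fewer cells of a type and less RNA per cell cannot be told apart.

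The 16-base stem-loop that SLBP binds was found in 46 of the 68 members when GENCODE M21 transcripts were searched downstream of the coding part. A member with no match may still have a stem-loop, since little or no downstream sequence is annotated for some genes. The deposited models of 13 members span no more than the coding part and stop codon. It is shown, in capitals with 5 flanking bases on each side, for the genes on which the results turn, since where a gene model ends relative to it differed among them. The most frequent core, that of Hist1h1c, was found in 26 members, and the core of Hist1h4d in 7. Coordinates are those of the capitals in GRCm38, and all are written 5′ to 3′ on the gene's own strand as DNA letters.
Hist1h1c (H1, chr13:23739512-23739527, plus strand): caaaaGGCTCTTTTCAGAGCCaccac
Hist3h2a (H2A, chr11:58955172-58955187, plus strand): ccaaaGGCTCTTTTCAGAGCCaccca
Hist1h2bg (H2B, chr13:23571843-23571858, plus strand): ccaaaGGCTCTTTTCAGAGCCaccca
Hist1h2bj (H2B, chr13:22043638-22043653, plus strand): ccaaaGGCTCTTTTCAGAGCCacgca
Hist1h3a (H3, chr13:23761890-23761905, minus strand): ccaaaGGCTCTTTTCAGAGCCacaca
Hist1h3c (H3, chr13:23745047-23745062, minus strand): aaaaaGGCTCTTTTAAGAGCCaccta
Hist1h3g (H3, chr13:23535889-23535904, plus strand): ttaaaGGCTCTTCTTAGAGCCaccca
Hist1h4d (H4, chr13:23581950-23581965, plus strand): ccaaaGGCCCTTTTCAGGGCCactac
Hist1h4i (H4, chr13:22040966-22040981, minus strand): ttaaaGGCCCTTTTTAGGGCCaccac
Hist2h4 (H4, chr3:96262939-96262954, minus strand): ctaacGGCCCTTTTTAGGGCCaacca

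Individual histone genes moved in both directions between the groups while their sum did not separate them. Of the 68 members, 12 had 0 counts in all 6 libraries, 16 were counted but fell below the expression filter, and 40 were tested. In edgeR's quasi-likelihood test, at a Benjamini-Hochberg adjusted p under 0.05 over 15458 tested genes, 20 were higher in Eumyc, 6 were lower and 14 passed in neither direction. Over all tested genes 25.7% were called higher and 23.1% lower, 48.8% in all. Every Eumyc library lay above every WT library in 21 members and below in 6, against 31.3% of all tested genes above and 28.9% below, 60.2% in all. The median log2 fold change, Eumyc over WT, was 1.43 over the 40 members and -0.00499 over all tested genes. This count depends on which libraries passed the filter, since 9 tested members passed it through no WT library. Among the 17 members that passed it in all 3 WT libraries, 6 were higher and 6 lower, with a median of 0.43. This subset is itself chosen on the WT level, and Hist2h4, 1 of its 6 lower members, passed the filter through no Eumyc library. Without Eumyc 3, 12 members were higher, without WT 2, 3 were lower, and with all libraries thinned to the smallest depth 19 were tested, 8 of them higher and 3 lower.

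Both directions were unevenly placed among the clusters and classes. All 20 higher members lie in cluster Hist1, where 34 were tested and 2 were lower, while 4 of the 6 tested members of the 3 smaller clusters were lower and none was higher. H3 genes had 7 of 8 tested members higher and none lower, with a median log2 fold change of 2.12. H2B had 7 of 12 higher and 3 lower (median 1.60), and H2A 4 of 7 higher and 1 lower (median 1.51). H1 had 1 of 5 higher and 1 lower (median 0.21), and H4 1 of 8 higher and 1 lower (median 0.60). The filter bears on these counts, since 2 of the tested H3, 4 of the H2B, 2 of the H2A and 1 of the H1 genes passed it through no WT library. Hist2h4, the lower H4 gene and 1 of the 4 lower in the smaller clusters, passed it through no Eumyc library. Of the genes that passed in all 3 WT libraries, 1 of 1 H3, 2 of 6 H2B, 2 of 3 H2A, 0 of 3 H1 and 1 of 4 H4 genes were higher. Single libraries moved the counts: H3 had 3 higher without Eumyc 3, H2A had 2 higher without WT 1, Eumyc 2 or Eumyc 3, H2B had 1 lower without WT 2, and H4 ranged from 0 higher without Eumyc 3 to 3 without WT 2 or WT 3. Whether the classes differ from one another was not tested.

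**Figure D1:**
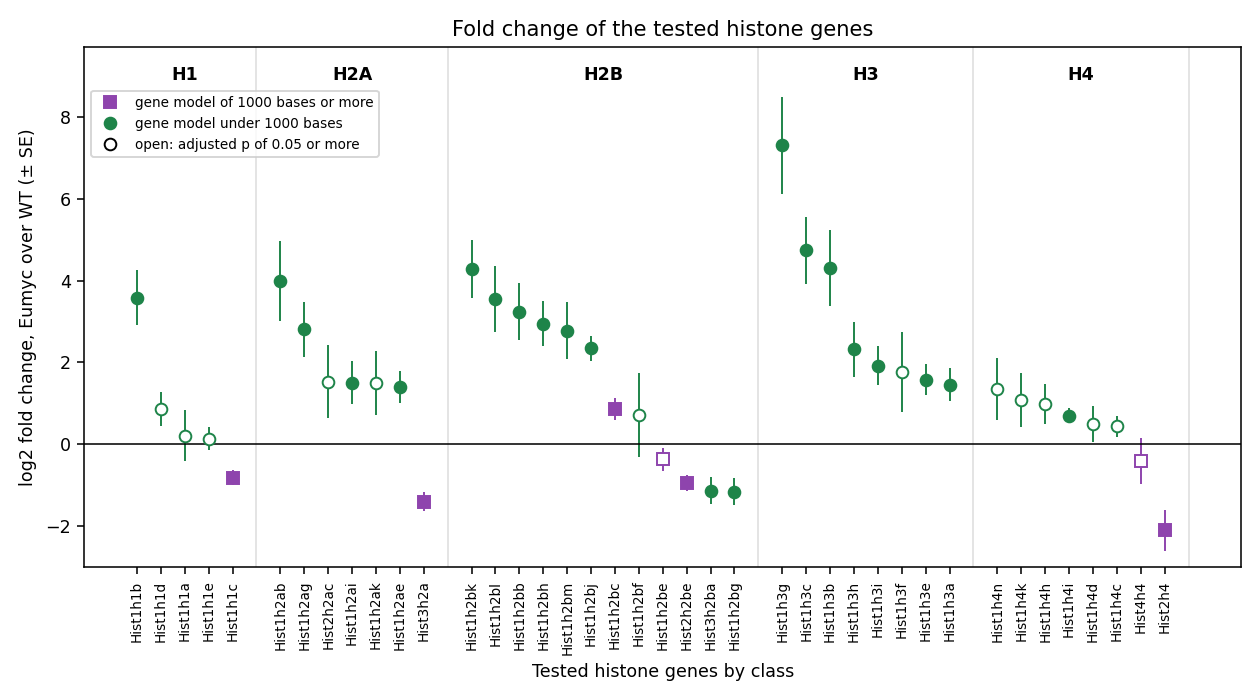
Log2 fold change (vertical axis, Eumyc over WT, ± SE) of each of the 40 tested histone genes, grouped by class; filled symbols passed the test and squares are gene models of 1000 bases or more. H3 genes all lie above 0, and the 6 lower genes include the lowest of H1, H2A, H2B and H4. The value of Hist1h3g, 7.30, was fitted against 0 WT counts and is no bound.

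The summed level of the histone genes was 68.3, 68.2 and 82.4 CPM in the Eumyc libraries, against 62.0, 79.0 and 61.4 CPM in the WT libraries. The groups overlapped, and the ratio of the means was 1.08. All CPM here are scaled by the trimmed mean of M-values (TMM). Behind this sum, the H3 genes reached 10.4, 10.03 and 15.5 CPM in Eumyc, against 2.09, 1.87 and 4.25 CPM in WT, with no overlap and a ratio of the means of 4.38. H4 genes summed to 13.4, 14.8 and 17.4 CPM in Eumyc and 9.16, 8.84 and 12.7 CPM in WT, again without overlap, but without Hist1h4i the other 12 ranged from 4.98 to 7.28 CPM in Eumyc and from 3.89 to 5.87 in WT and overlapped.

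H1 genes went the other way, at 16.96, 15.8 and 16.8 CPM in Eumyc and 20.1, 26.95 and 18.02 CPM in WT, so that every Eumyc library was below every WT library. The sums of H2A, 6.95 ± 1.33 CPM in Eumyc and 7.34 ± 1.31 in WT, and of H2B, 22.3 ± 1.69 in Eumyc and 25.5 ± 6.63 in WT, overlapped (SD, n = 3 each). In each of these 3 classes the gene with the most counts fell while at least 1 other was higher. Without Hist3h2a, the other 18 H2A genes summed to 3.32, 4.44 and 6.71 CPM in Eumyc, against 1.01, 1.76 and 2.51 CPM in WT. H2B genes without Hist2h2be summed to 12.1, 12.7 and 16.05 CPM in Eumyc and to 8.04, 10.98 and 7.30 CPM in WT, where the groups no longer overlapped. H1 genes without Hist1h1c summed to 6.53 ± 1.48 CPM in Eumyc and 4.28 ± 1.62 CPM in WT, with overlap.

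**Figure D2:**
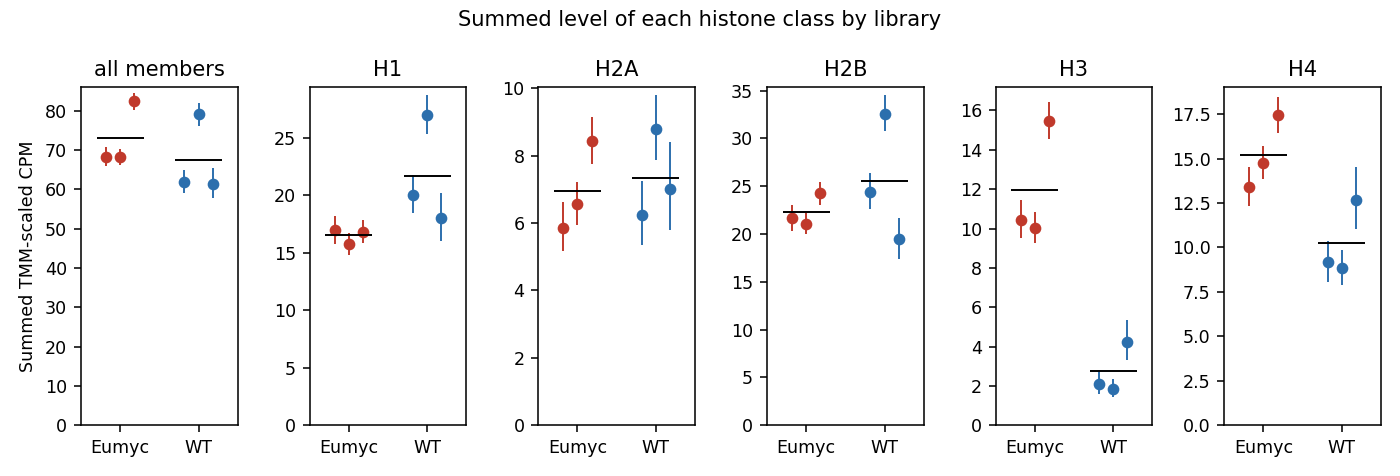
Summed TMM-scaled CPM (vertical axis, from 0) of all 68 histone genes and of each class; each point is a library, the vertical line its exact 95% Poisson interval for counting error, and the horizontal line the mean of 3. H3 and H4 lie above WT in every Eumyc library, H1 lies below, and the total, H2A and H2B overlap.

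Linker histones, the H1 proteins, bind where DNA enters and leaves the nucleosome. Of their 6 genes 5 were tested and 2 were called, in opposite directions, where 48.8% of all tested genes were called. Hist1h1c (H1.2), which took more counts than any other member in both groups, had 11.8, 9.46 and 8.71 CPM in Eumyc libraries, against 17.6, 21.6 and 13.0 CPM in WT libraries. The groups did not overlap, and it fell by 0.81 ± 0.19 on the log2 scale (SE, edgeR adjusted p = 0.0089). Hist1h1b (H1.5) had 0.877, 1.18 and 1.91 CPM in Eumyc and 0, 0.189 and 0.120 CPM in WT, a log2 fold change of 3.58 ± 0.67 (edgeR adjusted p = 0.0031). It had 9 counts over the WT libraries and passed the filter through none of them.

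The remaining tested linker histone genes did not pass. Hist1h1e (H1.4) had 3.17 ± 0.53 CPM in Eumyc and 2.90 ± 0.98 in WT, and Hist1h1d (H1.3) 1.52 ± 0.53 in Eumyc and 0.833 ± 0.355 in WT (SD, n = 3 each). Hist1h1a (H1.1) had 0.504 ± 0.386 CPM in Eumyc and 0.439 ± 0.206 in WT. The testis linker histone Hist1h1t had 3 counts, all in Eumyc 1. The other testis genes, Hist1h2aa and Hist1h2ba, had 0 counts in every library.

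H2A and H2B form the dimers that flank the histone core, and of their 19 tested genes 11 were higher and 4 lower. The shares over all tested genes were 25.7% higher and 23.1% lower. Among the 11 are 2 H2A and 4 H2B genes that passed the filter through no WT library. Hist2h2be, an H2B gene, had 9.60, 8.33 and 8.21 CPM in Eumyc and 16.4, 21.6 and 12.2 CPM in WT, without overlap (log2 fold change -0.95 ± 0.20, edgeR adjusted p = 0.0046). Hist3h2a had 2.54, 2.12 and 1.71 CPM in Eumyc and 5.23, 7.03 and 4.49 CPM in WT (-1.41 ± 0.23, edgeR adjusted p = 0.0017). Its neighbour in the Hist3 cluster, Hist3h2ba, was also lower, at 1.01 ± 0.33 CPM in Eumyc and 2.18 ± 0.52 in WT, a call lost without WT 2 or Eumyc 2 (edgeR adjusted p 0.0908 and 0.0556). Together Hist1h1c, Hist2h2be and Hist3h2a made up 22.6% to 34.99% of all histone counts in Eumyc libraries and 48.2% to 63.5% in WT libraries.

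Among the higher H2A and H2B genes Hist1h2bj took the most counts in Eumyc, and Hist1h2bc in WT. Hist1h2bj was at 3.02, 2.66 and 4.08 CPM in Eumyc, against 0.577, 0.487 and 0.958 CPM in WT. Every Eumyc library was above every WT library, and the log2 fold change was 2.34 ± 0.32 (edgeR adjusted p = 0.00071). Hist1h2ae had 0.738, 1.39 and 1.29 CPM in Eumyc and 0.288, 0.487 and 0.539 in WT (1.41 ± 0.39, edgeR adjusted p = 0.018), a call lost without WT 1, Eumyc 2 or Eumyc 3 (adjusted p 0.0611 to 0.0654). Hist1h2bk had 30, 53 and 50 counts in Eumyc and 3 counts over the WT libraries. Its ratio of pooled counts, each divided by the pooled library sizes of its group, was 20.2, with a counting interval of 6.77 to 99.3. Hist1h2ab had 17, 19 and 43 counts in Eumyc and 2 in WT, a ratio of pooled counts, taken in the same way, of 18.02 with a counting interval of 4.83 to 151.4.

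H3 and H4 form the tetramer at the centre of the nucleosome, and 7 of the 8 tested H3 genes were higher. The share over all tested genes was 25.7%, and 2 of the 7 passed the filter through no WT library. Hist1h3c had 4.22, 2.98 and 5.79 CPM in Eumyc, against 0, 0.027 and 0.659 CPM in WT. The log2 fold change was 4.74 ± 0.82 (edgeR adjusted p = 0.0022), and 7.92 without WT 3, which held nearly all of the 12 WT counts. The authors' deposited table lists 7 members, 5 of them under an adjusted p of 0.05. In the authors' deposited table Hist3h2a (-1.24), Hist2h2be (-0.89) and Hist1h1c (-0.76) are lower, Hist1h4i (0.64) and Hist1h3a (1.03) are higher, and Hist1h3c is at 0.59 with an adjusted p of 0.077, all as log2 fold changes on the authors' scale. Hist1h3a had 3.37, 3.19 and 4.54 CPM in Eumyc and 1.23, 0.676 and 2.40 CPM in WT (1.46 ± 0.40, edgeR adjusted p = 0.017), but missed the threshold at 0.0697 when WT 1 was left out and at 0.0584 when Eumyc 3 was.

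Hist1h3g had 12, 33 and 38 counts in Eumyc and 0 in every WT library, so it was at least 12.6-fold higher, taking a floor of 3 counts over the WT group. It fell below the filter without Eumyc 2 or Eumyc 3. Hist1h3b had 13, 19 and 21 counts in Eumyc and 1 in WT, a ratio of pooled counts over pooled library sizes of 24.2 with a counting interval of 4.16 to 973. Hist1h3e, Hist1h3h and Hist1h3i were also called higher, with log2 fold changes of 1.58 to 2.32, but Hist1h3h was not called without WT 2 or Eumyc 3 (adjusted p 0.0754 and 0.0855), nor Hist1h3i without Eumyc 3 (0.0504). Hist1h3f did not pass (log2 fold change 1.77 ± 0.98), and its values were 0.300, 0.278 and 0.932 CPM in Eumyc and 0, 0.081 and 0.479 in WT, the WT 3 value lying within the Eumyc range. Without WT 3 it passed (3.43, edgeR adjusted p = 0.0303).

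Of the 8 tested H4 genes, 6 did not pass in either direction. Hist1h4i had 8.40, 8.05 and 10.2 CPM in Eumyc and 5.26, 4.49 and 6.83 CPM in WT. Its log2 fold change was 0.70 ± 0.18 (edgeR adjusted p = 0.013), with an adjusted p of 0.0519 without WT 1 and 0.0539 without Eumyc 3. Hist2h4 was lower, at 0.115, 0.186 and 0.21 CPM in Eumyc and 0.469, 1.19 and 0.539 CPM in WT (-2.10 ± 0.50, edgeR adjusted p = 0.0092), which missed the threshold at 0.0544 without WT 2. Hist1h4d had 1.45, 2.43 and 2.53 CPM in Eumyc and 1.15, 0.865 and 2.81 CPM in WT and did not pass, but passed without WT 3 (log2 fold change 1.11, edgeR adjusted p = 0.0287). Hist1h4n had 0.531, 0.757 and 1.17 CPM in Eumyc and 0, 0.541 and 0.419 CPM in WT and did not pass (edgeR adjusted p = 0.171).

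**Figure D3:**
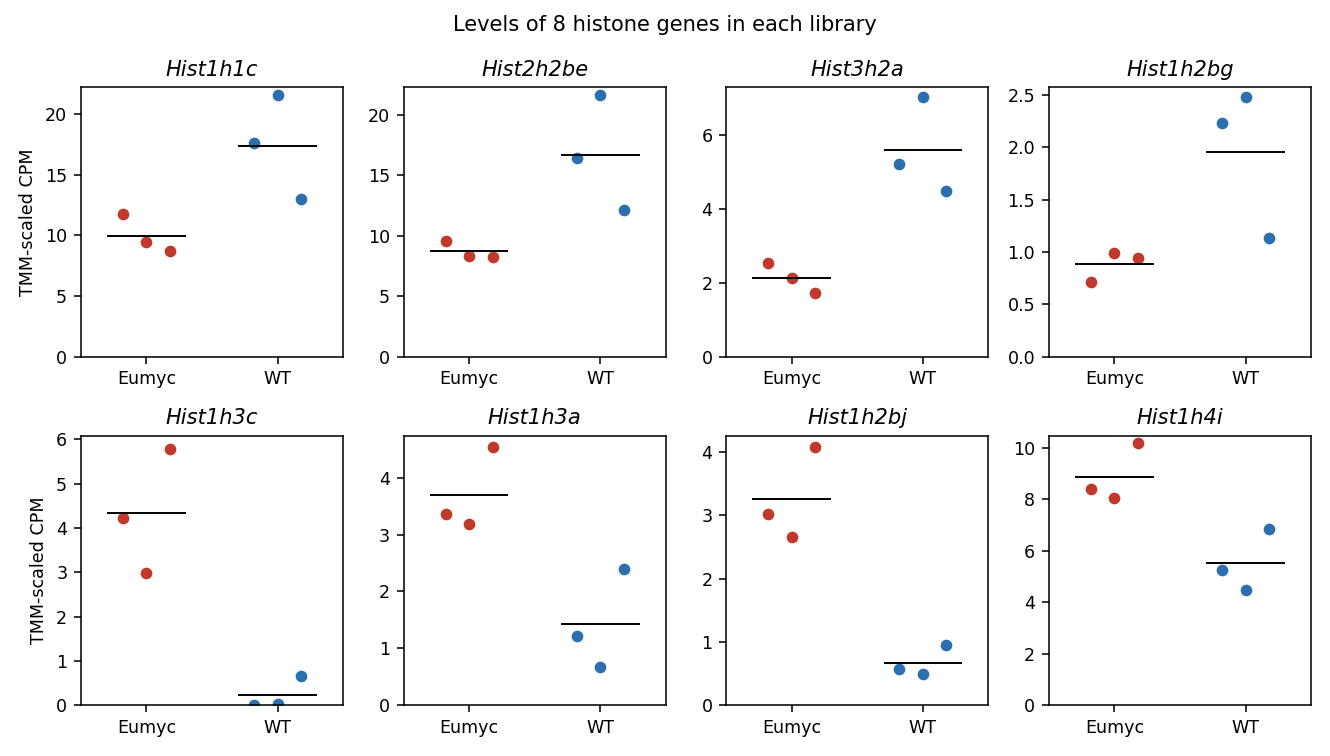
TMM-scaled CPM (vertical axis, from 0, scaled separately in each panel) of 8 histone genes, with a point for each library in the order 1 to 3 and a line for the group mean. In the upper row every Eumyc library lies below every WT library, in the lower row above, and WT 3 is the WT library nearest to Eumyc in each of the 8 panels.

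Levels per kilobase of gene model put different members first in the 2 groups. In Eumyc the order was Hist1h4i at 12.2 CPM per kilobase, Hist1h3c at 8.86, Hist1h2bj at 7.02, Hist1h3a at 6.93 and Hist1h1c at 6.40. In WT it was Hist1h1c at 11.2, Hist1h4i at 7.60 and Hist2h2be at 6.39, with Hist1h3c at 0.467. The divisor was the whole gene model, 1560 bases for Hist1h1c and 489 for Hist1h3c. Which part of a model the reads covered was not measured, so the orders depend on where the models end. How far neighbours in these orders differ was not tested.

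The lower genes had mostly long gene models. A split at a model length of 1000 bases was chosen after the values were seen, so it is a description with no test. Of the 11 members with models of 1000 bases or more, 7 were tested, of which 4 were lower (Hist1h1c, Hist2h2be, Hist3h2a and Hist2h4), 1 was higher (Hist1h2bc) and 2 did not pass, with a median log2 fold change of -0.81. Of the 57 members with shorter models, 33 were tested, of which 19 were higher and 2 lower (Hist1h2bg and Hist3h2ba), with a median of 1.53. The shares over all tested genes were 25.7% higher and 23.1% lower. All 9 members that passed the filter through no WT library have shorter models, and all 9 are among the 19, so that count partly restates the filter. Likewise Hist2h4, 1 of the 4 lower long models, passed it through no Eumyc library. Of the members that passed in all 3 WT libraries, 6 had long models, with 1 higher and 4 lower, and 11 shorter ones, with 5 higher and 2 lower. Without Eumyc 3, 12 of the shorter models were higher. Just below the split lay Hist1h3f at 848 bases and Hist1h3e at 836, and just above it Hist2h3c2 at 1020 and Hist1h2bc at 1156. Hist1h2bc was called in the fit without WT 2 but in none of the other fits that left out a library (edgeR adjusted p 0.0518 to 0.0891).

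The sums of long and short models separated the groups in opposite directions, and that of the long models rested on 3 genes. Members with long models summed to 28.1, 24.6 and 23.6 CPM in Eumyc, against 43.3, 56.3 and 33.4 CPM in WT. Without Hist1h1c, Hist2h2be and Hist3h2a, the other 8 summed to 4.18, 4.67 and 4.99 CPM in Eumyc and to 4.04, 6.11 and 3.71 CPM in WT, where the groups overlapped. Members with shorter models summed to 40.2, 43.6 and 58.8 CPM in Eumyc, against 18.7, 22.7 and 28.1 CPM in WT. The shorter models thus held 58.9% to 71.3% of histone counts in Eumyc libraries and 28.7% to 45.7% in WT libraries.

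The end of the gene model was then set against the stem-loops shown above. The deposited model of Hist1h1c runs 840 bases past its stem-loop, that of Hist3h2a 1643, that of Hist2h4 1257 and that of Hist3h2ba 169. For Hist1h2bg, the other lower gene with a match, the model ends 26 bases past it, and for Hist2h2be, with a model of 2620 bases, no match was found. Models of the higher genes Hist1h2bj, Hist1h3c and Hist1h3a end 23, 34 and 37 bases past the stem-loop, while that of Hist1h4i runs 330 bases past it. Over all members with a match, models ending at least 100 bases past it had 9 tested members with 2 higher and 4 lower. Models ending within 100 bases past it had 18 tested members with 9 higher and 1 lower. The shares over all tested genes were 25.7% higher and 23.1% lower, and whether these groups differ was not tested. The 3 tested members whose models end before the match, Hist1h3g among them, were all higher. Hist1h3g and Hist1h2bh of these passed the filter through no WT library. The same holds for the higher genes Hist1h2ab, Hist1h2ag, Hist1h2bb, Hist1h2bk and Hist1h3b, whose models end within 100 bases past the match. Hist2h4, lower and with a model ending further past it, passed the filter through no Eumyc library. These counts thus partly restate the filter. Of 10 tested members with no match, whose stem-loop may lie outside the annotated transcript or differ from the pattern searched, 6 were higher and 1 lower. The table counts reads per gene, so which transcript end a read came from was not measured, and the kit's RNA selection is not given in the sources used here.

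**Figure D4:**
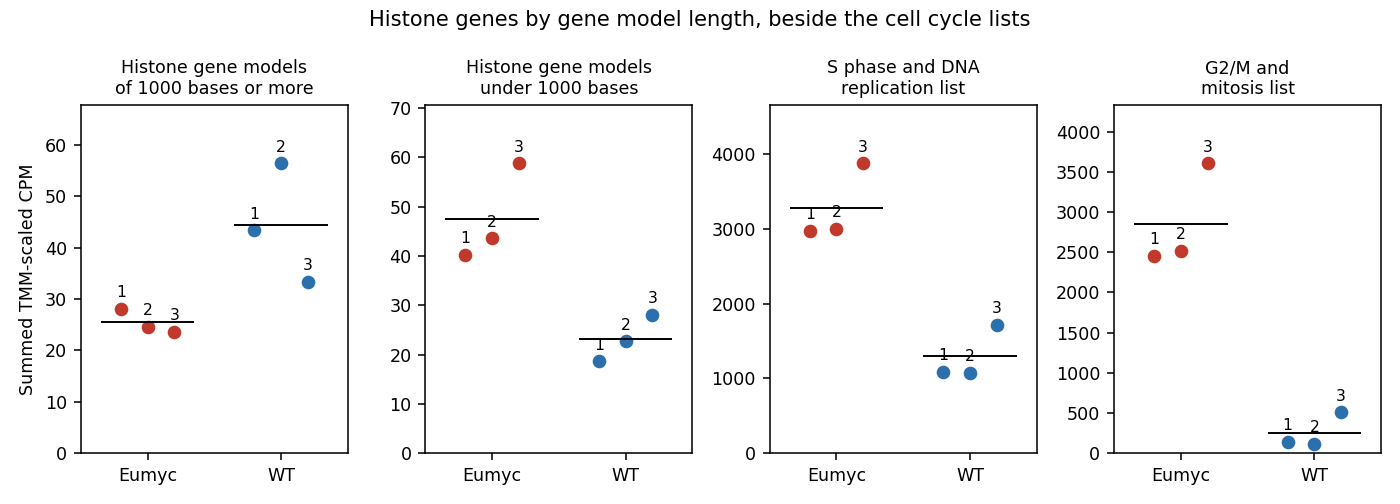
Summed TMM-scaled CPM (vertical axis, from 0) of histone genes with gene models of 1000 bases or more, of those with shorter models, of 30 S phase and DNA replication genes and of 25 G2/M and mitosis genes; points are libraries with their replicate number and lines are group means. Long models lie lower in every Eumyc library, the other 3 panels higher, and WT 3 is the lowest WT library for long models and the highest for the rest.

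The WT libraries differed from one another more in these genes than in genes at large. Each WT library was set against the mean of the other WT libraries on the log2 CPM scale. The median absolute difference over the 40 tested histone genes was 1.08 in WT 1, 0.77 in WT 2 and 0.79 in WT 3, against at most 0.19 over all tested genes in any of them. Over the 17 histone genes that passed the filter in all 3 WT libraries it was 0.25 in WT 1, 0.61 in WT 2 and 0.49 in WT 3. Counts were low in these genes, and their median biological coefficient of variation was 0.314, against 0.122 over all tested genes. The summed H3 level of WT 3, 4.25 CPM from 71 counts (exact 95% Poisson interval 3.32 to 5.36), lay above that of WT 1, 2.09 CPM from 58 counts (1.59 to 2.70), and of WT 2, 1.87 CPM from 69 counts (1.45 to 2.36). These intervals cover counting error only.

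WT 3 was below the other WT libraries in 6 of 7 tested long models (median -0.46) and above them in 22 of 33 shorter ones (median 0.49). By class it was above them in 6 of 8 H3 genes but in 3 of 12 H2B genes. Of the 17 members that passed the filter in every WT library, it was above them in 7. Differences of this size were not particular to WT 3. WT 2 was above the others in 6 of 7 long models (median 0.61) and in 18 of 33 shorter ones (median 0.29). WT 1 was above the others in 3 of 7 long models (median -0.10) and in 8 of 33 shorter ones (median -0.80). Over all tested genes the share above was 49.5% for WT 1, 49.7% for WT 2 and 50.5% for WT 3.

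In cell cycle genes WT 3 was the high WT library. WT 3 was above the other WT libraries in 29 of 30 S phase genes (median 0.81) and in all 25 G2/M genes (median 1.95). The S phase list summed to 2975, 2998 and 3874 CPM in Eumyc and 1089, 1075 and 1717 CPM in WT. In Eumyc, library 3 was the high one, above the others in 48.8% of all tested genes, in 30 of 30 S phase genes (median 0.40) and in 30 of 33 shorter histone models (median 0.59), but in 3 of 7 long ones. The part of these differences in the histone values was not tested. WT 3 is also the shallowest library. Without it, 24 members were higher and 6 lower.

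**Figure D5:**
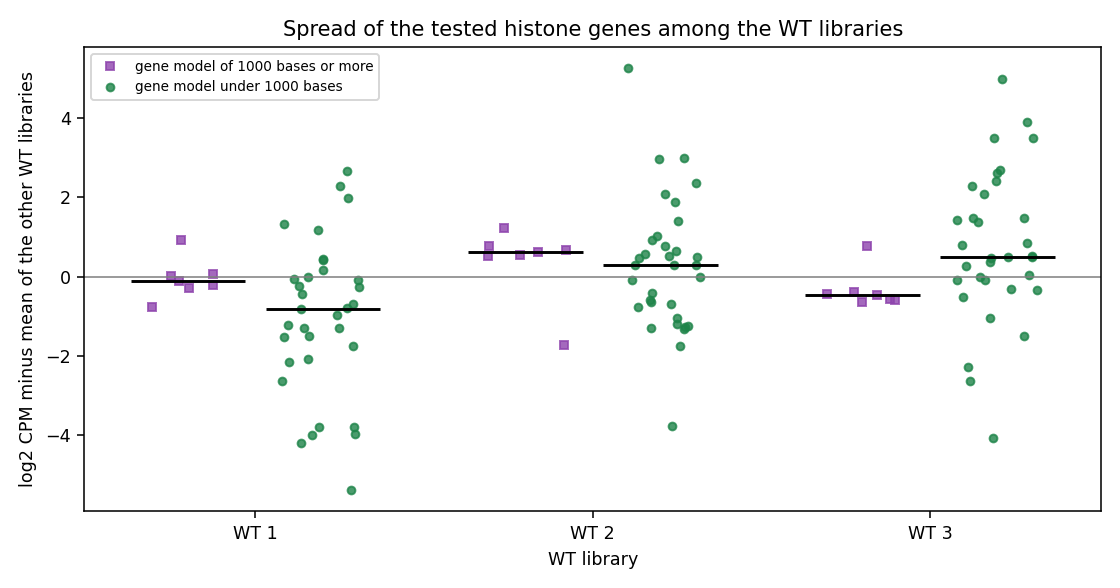
Difference of each WT library from the mean of the other WT libraries (vertical axis, log2 CPM) for the 40 tested histone genes; squares are gene models of 1000 bases or more, circles shorter ones, and lines their medians. Long models lie mostly above 0 in WT 2 and below 0 in WT 3, while the shorter models scatter widely.

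H2A and H2B genes often lie head to head and share a stretch of promoter. There were 12 such divergent pairs within 1000 bases, and both genes were tested in 4. Hist1h2ag and Hist1h2bj, 270 bases apart, were both higher, as were Hist1h2bl and Hist1h2ai. The groups overlapped in Hist1h2ai (edgeR adjusted p = 0.043), and its call was lost without WT 1, WT 3, Eumyc 2 or Eumyc 3 (adjusted p 0.0706 to 0.172). Hist1h2bl fell below the filter without Eumyc 2 or Eumyc 3. Hist1h2ag, with 9 counts over the WT libraries, and Hist1h2bl, with 3, passed the filter through no WT library. Each pair called higher was thus tested only because a partner was high in Eumyc. Hist1h2ae and Hist1h2bg, 287 bases apart, were called in opposite directions. Hist1h2bg had 0.715, 0.989 and 0.947 CPM in Eumyc and 2.24, 2.49 and 1.14 CPM in WT (-1.16 ± 0.33, edgeR adjusted p = 0.019). That call was lost without WT 1, WT 2 or Eumyc 1 (adjusted p 0.0598 to 0.0802). Hist2h2be was lower and Hist2h2ac, 239 bases away, did not pass (1.53 ± 0.90), but was higher without WT 3 (2.87, edgeR adjusted p = 0.0437).

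The promoter stretches of 2 pairs are shown, the first with both genes called higher and the second with its genes called in opposite directions. In the first, Hist1h2ag passed the filter through no WT library. They are the 120 bases before the RefSeq start (GRCm38.p6), 5′ to 3′ on the gene's strand. Capitals mark, on either strand, the CCAAT box (CCAAT), the TATA box (TATAAA), the octamer (ATTTGCAT), bound by the factor Oct-1, and the H1 box (AAACACA).
Hist1h2bj (higher, chr13:22043078-22043197, plus strand): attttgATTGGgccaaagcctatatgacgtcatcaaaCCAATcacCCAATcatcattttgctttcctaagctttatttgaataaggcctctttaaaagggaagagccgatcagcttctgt
Hist1h2ag (higher, chr13:22042950-22043069, minus strand): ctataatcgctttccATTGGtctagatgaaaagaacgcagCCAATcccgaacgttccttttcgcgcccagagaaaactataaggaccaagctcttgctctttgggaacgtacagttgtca
Hist1h2bg (lower, chr13:23571280-23571399, plus strand): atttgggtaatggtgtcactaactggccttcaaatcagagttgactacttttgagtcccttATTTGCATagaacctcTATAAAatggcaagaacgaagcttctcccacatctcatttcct
Hist1h2ae (higher, chr13:23571221-23571340, minus strand): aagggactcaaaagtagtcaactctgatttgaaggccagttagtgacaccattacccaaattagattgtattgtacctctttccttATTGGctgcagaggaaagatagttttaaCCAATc

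Across the 62 members with a RefSeq promoter, the 250 bases before the start held a CCAAT box in 82.3%, against 34.5% of 27025 promoters, and TATAAA in 46.8%, against 13.0%. All of the H2A, H2B and H1 promoters among them held a CCAAT box, and 25.0% of H4 promoters did. The octamer was found in 7 of 18 H2A and 6 of 16 H2B promoters and in 1.61% of all promoters, and it was in 5 of 18 promoters of higher genes and 2 of 4 of lower genes. The H1 box was in 5 of 6 H1 promoters, with 6.22% of all promoters holding it. The motifs were searched on both strands, and a match is a description of the letters. The searched stretches of head-to-head genes can overlap, so the same match can count for both partners. The octamer printed for Hist1h2bg, a lower gene, also counts for Hist1h2ae, a higher gene.

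Members with few counts tended to share more of their sequence with other genes, with exceptions. Of the 50-base windows of a member's transcripts, the median share found in no other gene was 4.59% for the 12 members with 0 counts, 34.7% for the 16 below the filter and 53.6% for the 40 tested. In 5 of the 12 the share was 0, namely Hist2h2aa1, Hist2h2aa2, Hist2h2bb, Hist2h3b and Hist2h3c1. Hist1h2aa, at 76.3%, and Hist1h2ba, at 61.8%, also had 0 counts, while Hist1h3h, at 6.08%, was tested and called higher. Whether shared sequence lowered any count was not tested. Counts of single members are uncertain, since how reads matching several genes were treated is not given in the sources used here. Of the members below the filter with 0 WT counts, Hist1h4f was at least 8.82-fold, Hist1h2bn at least 6.08-fold and Hist1h2an at least 5.47-fold higher in pooled Eumyc counts, against a floor of 3 counts over the WT group. Their Eumyc counts were uneven, at 10, 10 and 38, at 15, 22 and 3, and at 8, 2 and 26. For Hist1h2ah and Hist1h2af the same bounds were 1.22 and 0.76, and Hist1h1t and Hist1h4b had 3 and 2 Eumyc counts. Hist1h2ac, Hist1h2ad, Hist1h2al, Hist2h3c2 and Hist1h4m, also below the filter, had lower mean CPM in Eumyc than in WT.

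Of 20 genes that make and process histone transcripts, 10 were higher in Eumyc and 3 lower, with a median log2 fold change of 0.19. The shares over all tested genes were 25.7% higher and 23.1% lower. Slbp had 136, 130 and 154 CPM in Eumyc and 94.2, 99.1 and 108 CPM in WT (0.48 ± 0.08, edgeR adjusted p = 0.0018), all Eumyc libraries being above all WT libraries. The cyclins Ccne1 (1.65 ± 0.20) and Ccne2 (1.77 ± 0.26), partners of Cdk2 at the start of S phase, were also higher. Npat, the coactivator of histone gene transcription, had 48.1 ± 3.22 CPM in Eumyc and 43.0 ± 0.64 in WT and did not pass. Casp8ap2, another component of the histone locus body, had 84.1 ± 6.24 CPM in Eumyc and 73.1 ± 1.98 in WT (0.20 ± 0.07, edgeR adjusted p = 0.038). Of the U7 snRNP proteins that cut the transcript after the stem-loop, Lsm11 was lower, at 24.9 ± 1.23 CPM in Eumyc and 31.4 ± 0.36 in WT, and Lsm10 had 14.1 ± 0.56 in Eumyc and 11.8 ± 0.87 in WT and did not pass.

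Of 23 chaperone and assembly genes, 15 were higher and 1 lower (25.7% and 23.1% over all tested genes), with a median log2 fold change of 0.52. They included Chaf1a, the large subunit of the assembly factor CAF-1, at 52.5 ± 10.3 CPM in Eumyc and 10.6 ± 7.47 in WT, and Asf1b, which hands over H3 and H4, at 66.9 ± 14.4 CPM in Eumyc and 14.0 ± 6.92 in WT. Replication-independent variants, many of which are made outside S phase as well, had 7 of 10 tested genes higher and none lower (median 0.36). Whether those named here vary with the cell cycle was not tested. H2afx, which marks DNA breaks when phosphorylated, had 130 ± 20.9 CPM in Eumyc and 29.7 ± 9.13 in WT, and Cenpa, the centromere H3, 107 ± 24.1 CPM in Eumyc and 41.9 ± 5.10 in WT.

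H3f3b, which encodes H3.3, had 517 ± 22.3 CPM in Eumyc and 424 ± 27.0 in WT, a log2 fold change of 0.29 ± 0.07, while H2afz did not pass, at 376 ± 20.7 CPM in Eumyc and 413 ± 12.6 in WT. The linker variant H1f0 was higher, at 14.3 ± 3.50 CPM in Eumyc and 6.30 ± 1.16 in WT, whereas Hist1h1c was lower. Pcna, the sliding clamp of DNA polymerase, had 260 ± 40.3 CPM in Eumyc and 124 ± 26.5 in WT, and Mki67, a marker of cycling cells, 672 ± 115 in Eumyc and 64.6 ± 62.2 in WT. In the same lists Rrm2, a subunit of ribonucleotide reductase, had a log2 fold change of 3.15 ± 0.54, Mcm10, a replication initiation factor, 3.05 ± 0.60, Ube2c, a ubiquitin carrier of mitosis, 4.84 ± 0.39, and Ccnb1, a mitotic cyclin, 4.69 ± 0.40.

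Markers of other cells moved with the groups. Summed CPM of 12 B cell and lymphoma markers was 51.6 to 58.8 in Eumyc and 16.5 to 20.0 in WT. Of these markers 8 of 9 tested were higher, against 25.7% of all tested genes. Monocyte and macrophage markers summed to 1491 to 1975 CPM in Eumyc and 1122 to 1208 in WT, and neutrophil markers to 36.8 to 52.6 in Eumyc and 1.00 to 3.35 in WT. Erythroid markers summed to 62.4 to 73.4 CPM in Eumyc and 14.6 to 33.6 in WT, and T cell markers to 283 to 341 in Eumyc and 204 to 218 in WT. The part of these cells in the histone values was not tested.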

How the data were processed

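Splenic NK cell RNA of 3 Eumyc and 3 WT libraries was sequenced. The authors deposited whole-number counts per gene, with coordinates, symbols and biotypes. The tools named in the submitters' processing notes are STAR 2.5.2, HTSeq 0.6.1, DESeq2 1.10.1 and, as builds of the same assembly, mm10 and GRCm38. The annotation release, the strand setting, the handling of reads that match several genes and the kit's RNA selection are not given in the sources here. A deposited table of the authors' own test, with log2 fold changes and p-values for 10292 genes, lists 7 members.

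Tests used edgeR 4.0.16 (R 4.3.3) with filterByExpr at a minimum count of 10, TMM scaling, a quasi-likelihood fit of the group alone and two-sided tests. The Benjamini-Hochberg adjustment ran over all tested genes, with calls under 0.05. Log2 fold changes run Eumyc over WT, with standard errors from the F statistic. Sums over a class carry no test. Differences between WT libraries used log2 CPM with a prior count of 0.5. The fit was checked on simulated data. Replicate numbers come from the sample titles.

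Gene model lengths are the deposited spans, or the union of GENCODE M21 exons for spliced genes. Stem-loops and windows of 50 bases were searched in M21 transcripts, and promoters in RefSeq GRCm38.p6 sequences. The stem-loop pattern let pyrimidines or purines vary at the variable stem positions and did not require pairing. Members, gene lists and tests were chosen with earlier results of these data known. The genes named with values were all H1 genes, the 2 members of each other class with the highest Eumyc level and those with the highest and lowest log2 fold change, the testis genes, and the 2 largest changes in each companion list with a fixed set of factors. Hist3h2ba, Hist1h3b, Hist1h3e, Hist1h3f, Hist1h3h, Hist1h3i, Hist1h2bc and the divergent pairs were added after their values were seen.

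Alternatives were DESeq2 1.42.0, limma 3.58.1 with voom, other scalings and filters, counts thinned to the smallest library, a block for the replicate number, and each library left out in turn. Figures were drawn with matplotlib 3.10.9.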

Additional observations from a re-analysis of the deposited data

How the results depend on the processing

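The calls rest on low counts: under a filter of 3 CPM in 3 libraries only 6 members were tested, and with counts thinned to the smallest library 19 were. Under the 3 CPM filter 2 members were higher and 3 lower, with 0 H1, 0 H2A, 0 H2B and 1 H3 member higher, 1 H2B and 0 H4 members lower, and 2 shorter models higher. After thinning, 8 members were higher and 3 lower, with 0 H2A, 3 H2B and 3 H3 members higher, 1 H2B and 0 H4 members lower, and 7 shorter models higher. Fewer members pass the filter by construction in both. DESeq2 and no filter each gave 2 H4 members higher. The other scalings, voom and the replicate block kept every count of members within 1.5 times, with 19 or 20 of the 20 higher and 6 of 6 lower genes remaining.

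Leaving out each library in turn gave 12 to 24 members higher (lowest without Eumyc 3) and 3 to 6 lower (lowest without WT 2). The range of higher counts was 2 to 5 for H2A, 5 to 7 for H2B, 3 to 8 for H3 and 0 to 3 for H4, and of lower counts 1 to 3 for H2B and 0 to 1 for H4. Shorter models higher ranged from 12 to 24, and long models lower from 3 to 4. Of the 20 higher genes, 11 remained without Eumyc 3. The log2 fold change of Hist1h1a, never called, ran from -0.63 without Eumyc 3 and -0.12 without WT 1 to 0.64 without WT 2, and that of Hist1h1e, never called, from -0.12 without WT 1 to 0.32 without WT 2. The cause was not tested. Over all tested genes, deviations of same-numbered libraries correlated at 0.0258 to 0.0826. The values for replicates 2 and 3 (0.0797 and 0.0826) were the highest of all pairs, while WT 1 correlated best with Eumyc 2. A correlation over all genes cannot show whether a part of the genes deviates together. The numbers were not taken as pairs, and with the replicate block 20 members were higher and 6 lower.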
